A study of Homo sapiens with 30 samples.

Results

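HCT116 is a colorectal cancer cell line, and the comparison described here sets 3 of its libraries, labelled as SETDB1-hairpin (shSETDB1) cells sorted KRT-positive, against 3 libraries labelled only as unsorted HCT116. These 6 libraries, taken by their titles, belong to a series of 30 libraries in 10 groups of 3 that examined Caco2, HCT116 and SW480 after lowering SETDB1. The assay was QuantSeq, in which each polyadenylated RNA is read once close to its 3′ end, and all genes were compared. The protocol that the groups share describes retroviral transduction, puromycin at 2 µg/ml for 3 days and 1 µg/ml afterwards, and, from day 3, a differentiation medium with 10 µM troglitazone and 25 nM 1α,25-dihydroxyvitamin D3. The labels do not say whether the unsorted cells were transduced, carried a hairpin or grew in that medium. The hairpin, the sort and the medium therefore cannot be told apart in this comparison. The labels also do not say whether replicates were separate cultures, so p-values measure the spread between these libraries only, which may be technical.

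SETDB1 trimethylates lysine 9 of histone H3 and, with the corepressor TRIM28, is known for keeping repeats and some genes silent. Keratins are the intermediate filament proteins of epithelial cells, and KRT20 appears as gut epithelial cells mature. Of the agents in the medium, troglitazone activates the nuclear receptor PPARG, and 1α,25-dihydroxyvitamin D3 activates VDR, the vitamin D receptor. Both receptors switch on transcription of their own target genes when bound.

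The labelled KRT-positive libraries held 8662931, 9660284 and 8746225 counts and the unsorted libraries 6284241, 7130812 and 5349737, in the order of replicates 1, 2 and 3, which is kept for all triples of values. Levels are CPM, counts scaled to a common library size with edgeR's TMM factors. The Spearman correlation across genes was 0.876 to 0.898 between libraries of the same group and 0.803 to 0.82 between libraries of the 2 groups (genes are not independent replicates). The replicates differed by far more than counting error, with a chi-square per degree of freedom of 37.6 to 63 within groups and 119 to 149 between them. Among genes with a mean of 5 to 20 CPM, 25.1% had at least 1 of the 6 libraries at 0, against 1.52% of genes at 20 to 50 CPM. Expression also followed transcript GC content differently in unsorted replicate 3 (a log2 slope of 0.256 per 10% GC) than in the other 5 libraries (−0.157 to −0.037). The KRT-negative libraries, given below as side values, had slopes of −0.149, 0.206 and 0.157, so their levels carry this limit too. The share of genes called different rose with level, from 1.42% at 5 to 20 CPM to 48.8% at 500 CPM and above, so low genes could seldom be called at this depth and spread.

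**Figure D1:**
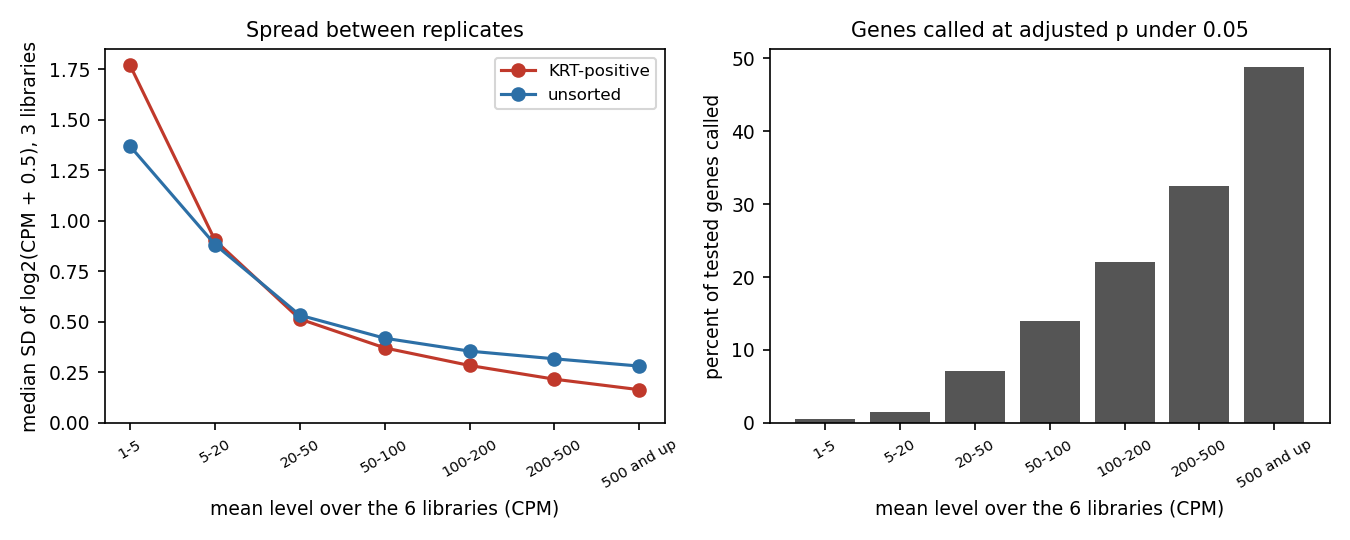
The left panel plots the median SD of log2(CPM + 0.5) over 3 libraries (y axis) against the mean level in CPM (x axis) for the labelled KRT-positive (red) and unsorted (blue) groups, and the right panel plots the percent of tested genes called at each level. The spread falls from 0.904 and 0.883 at 5 to 20 CPM to 0.164 and 0.281 at 500 CPM and above, while the percent called climbs to 48.8%.

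SETDB1 itself (chromosome 1, 150926263 to 150964744, GRCh38), the gene the hairpin targets, stood at 2.15, 19.9 and 31.3 CPM in the labelled KRT-positive libraries and at 72.5, 70.8 and 16.8 in unsorted libraries. Unsorted replicate 3 lay below 2 of the 3 labelled KRT-positive libraries, so the groups overlapped. The fitted difference did not pass the test (log2 −1.59, SE 1.02, adjusted p = 0.407 by edgeR's quasi-likelihood test with Benjamini-Hochberg adjustment, which gives all adjusted p-values below unless named otherwise). Without unsorted replicate 3 the log2 difference was −2.01 with an edgeR adjusted p of 0.346. In the KRT-negative fraction of the same hairpin cells, which shares the unsorted controls, SETDB1 stood at 0, 5.75 and 2.97 CPM. The 3′ tag counts the polyadenylated transcript, not the protein, and a lower transcript level in the labelled KRT-positive libraries is not shown by these counts.

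KRT20 (chromosome 17, 40875941 to 40885227, GRCh38) had 0, 0 and 5.84 CPM in the labelled KRT-positive and 0.163, 0.144 and 0.853 in unsorted libraries, too few counts to test. Only KRT-positive replicate 3 held more KRT20 than the unsorted libraries. KRT19, a keratin of simple epithelia, had 193, 106 and 121 CPM in the labelled KRT-positive and 414, 465 and 617 in unsorted libraries, and it fell with no overlap of the groups (log2 −1.83, SE 0.31, adjusted p = 0.00142). KRT18 had 251, 254 and 271 against 303, 393 and 551 CPM, lower in each labelled KRT-positive library without passing the test (log2 −0.68, adjusted p = 0.0829). Its partner KRT8 had 52.1, 87.7 and 38.7 against 83.9, 87.3 and 123 CPM with overlapping groups (adjusted p = 0.272). Of 19 keratins listed, 8 were tested, 1 fell, none rose and 7 were not called (5.02% of all tested genes were called lower and 4.26% higher), with a median log2 difference of −0.63 against 0.0747 over all tested genes (−0.407 on library totals). Without unsorted replicate 1, and with DESeq2, KRT18 fell as well (adjusted p = 0.0395 and 0.0348). In the libraries labelled KRT-positive no keratin was called higher, at an unadjusted p under 0.05 or by DESeq2 either, and the labels do not name the keratin sorted on.

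**Figure D2:**
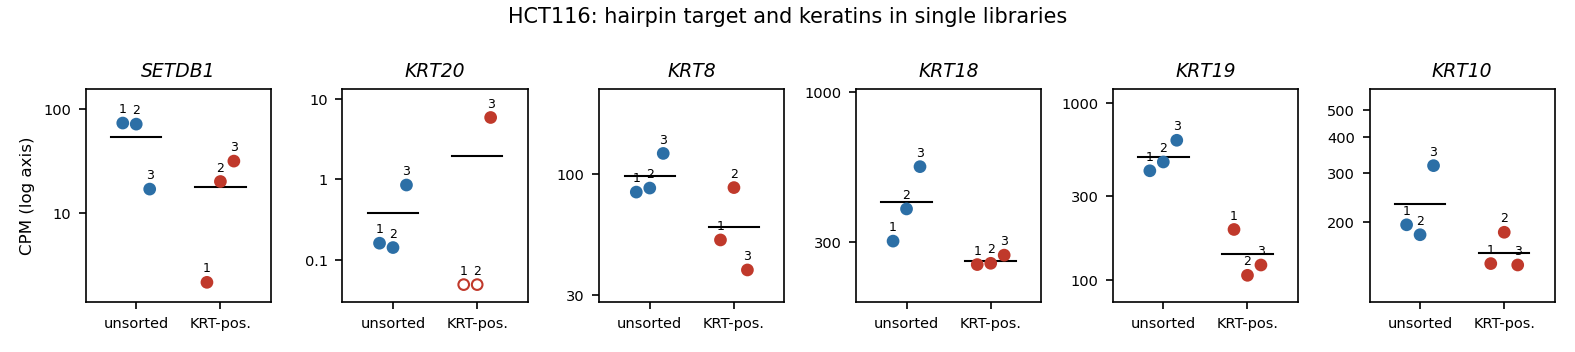
Each panel plots the CPM (log axis) of 1 gene in the 3 unsorted (blue) and 3 labelled KRT-positive (red) HCT116 libraries, numbered by replicate, with black lines at the group means and open circles for 0 counts, drawn at 0.05. SETDB1 in unsorted replicate 3 (16.8 CPM) lies among the labelled KRT-positive libraries, and KRT19 is lower in all 3 of them.

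Against this background of scattered replicates, 1232 of 13279 tested genes (9.28%) were called different at an adjusted p under 0.05, 566 higher (4.26%) and 666 lower (5.02%) in the labelled KRT-positive libraries. At least 2-fold changes made up 536 of the higher and 556 of the lower calls, and at least 4-fold changes 216 and 150. The 6 libraries did not overlap in 30.3% of tested genes (15.6% higher, 14.7% lower), and in 1227 of the 1232 called genes. Without scaling factors, on library totals alone, the split turned from 45.9% to 63.8% of calls higher (820 higher, 465 lower), with the median of all genes shifted by 0.212 on the log2 scale. Leaving out 1 library lowered the calls to 817, 825 or 812 without KRT-positive replicate 1, 2 or 3 and to 983, 956 or 976 without unsorted replicate 1, 2 or 3. The last of these also serves as the comparison without the unsorted library whose GC trend differs, though the KRT-negative libraries stayed in that fit. Counts of list members called are edgeR's, for setting beside the 4.26% higher and 5.02% lower of all tested genes. Those shares were not matched for level, although calls rose with level. For every list said to have no member higher or none lower, DESeq2 and an unadjusted p under 0.05 also gave 0 in that direction, except, at that p alone, for 1 p53 target lower and 1 member higher each among the H3K9 methylation and mitochondrial ribosomal genes, and except for the class I, VDR, oxidative phosphorylation, LINC, protocadherin, germline, goblet and leukocyte lists, whose counts stand beside them.

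**Figure D3:**
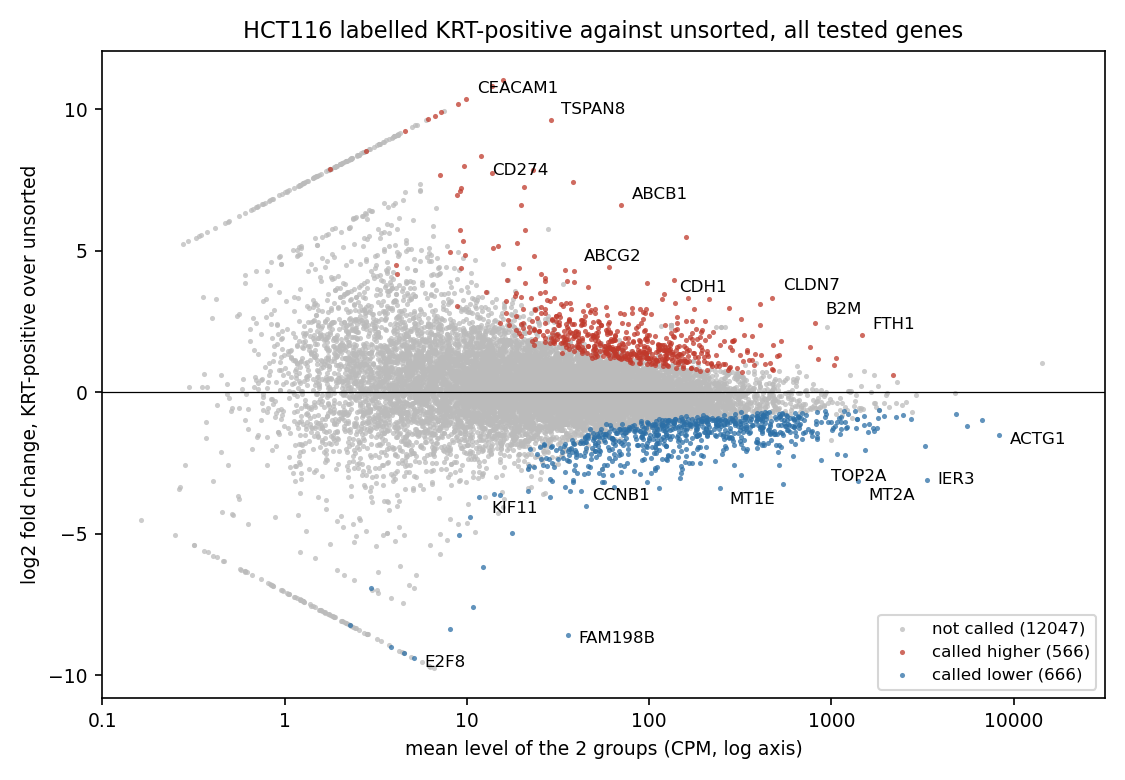
Each point is 1 of 13279 tested genes, with its mean level over the 2 groups (x axis, CPM, log axis) and its fitted log2 fold change of labelled KRT-positive over unsorted HCT116 libraries (y axis), red for 566 genes called higher and blue for 666 called lower. The straight outer lines of points are genes with 0 counts in 1 group. B2M, MT2A and MT1E lie far from 0 at high levels, while TSPAN8, CEACAM1 and CD274 lie at low levels with few or no unsorted counts.

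The largest called increases were in genes with few or no counts in unsorted libraries. TSPAN8 (chromosome 12, 71125085 to 71441898, GRCh38), a tetraspanin membrane protein of gut epithelium, had 61.5, 57.3 and 54.3 CPM in the labelled KRT-positive and 0, 0 and 0.213 in unsorted libraries. It rose (edgeR adjusted p = 2.95e-05), with a ratio of 1026 (95% counting interval 184 to 40566) from 1 unsorted count that covers counting error only. The carcinoembryonic antigen family adhesion molecule CEACAM1 had 23.4, 13.7 and 22.6 CPM against 0 in all 3 unsorted libraries, at least 116-fold higher when 3 counts over the group stand for 0 (edgeR adjusted p = 0.00416). CEACAM5, the carcinoembryonic antigen itself, had 8.79, 16.1 and 15.0 CPM against 0 throughout, at least 79.8-fold higher (edgeR adjusted p = 0.00544). Family members are alike in sequence, and the sharing of reads among them was not tested.

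Further genes read at 0 in every unsorted library were DHRS9, a retinol and steroid dehydrogenase (30.9, 32.3 and 19.2 CPM, at least 164-fold higher), and SELENBP1, a selenium-binding protein of mature colonocytes (59.0, 20.8 and 15.3 CPM, at least 184-fold higher). DAPP1, a signalling adaptor, had 8.37, 10.5 and 17.9 CPM and was at least 72.6-fold higher. Their edgeR adjusted p-values were 0.00347, 0.00603 and 0.00347. Replicates of 1 group could differ, as in SELENBP1, where replicate 1 held nearly 3 times the level of replicate 2. In the KRT-negative fraction SELENBP1 had 0, 16.8 and 12.3 CPM and DAPP1 8.12, 12.9 and 30.7, both overlapping the labelled KRT-positive libraries. CACNA1B and TTN-AS1, also at 0 in unsorted libraries, had edgeR adjusted p-values of 0.0253 and 0.0131 that became 0.108 without KRT-positive replicate 3 for CACNA1B and 0.068 without KRT-positive replicate 1 for TTN-AS1. Without KRT-positive replicate 1, unsorted replicate 1, 2 or 3, CACNA1B had 0.0659, 0.0631, 0.0636 and 0.0607.

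Among the 17 tetraspanins tested, 4 rose, 1 fell and 12 were not called, in a list chosen after the values were seen. Without KRT-positive replicate 1, KRT-positive replicate 3 or unsorted replicate 1 the higher calls numbered 1, 2 and 2, and the lower call was lost. TSPAN8 kept its call in each of these fits.

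ABC transporters, which use ATP to move drugs, lipids and other compounds across membranes, held the gene with the smallest p of the comparison. ABCB1 (chromosome 7, 87503633 to 87713323, GRCh38), which encodes the drug efflux pump P-glycoprotein, had 154, 112 and 151 CPM in the labelled KRT-positive and 0.976, 1.01 and 2.345 in unsorted libraries. The 3 labelled KRT-positive libraries were close together and about 96.3-fold above the unsorted mean (log2 6.62, SE 0.48, adjusted p = 2.4e-06). ABCG2, a further efflux pump, had 78.7, 91.6 and 49.5 against 6.34, 2.01 and 2.99 CPM and rose (log2 4.27, adjusted p = 0.000228). ABCC5, an exporter of cyclic nucleotides, had 269.7, 306 and 219 against 74.8, 62.2 and 70.4 CPM (edgeR adjusted p = 0.000255), and ABCA5, a lipid transporter of the lysosome, 89.1, 82.9 and 68.2 against 15.1, 15.4 and 17.7 CPM (edgeR adjusted p = 0.00416). Of 26 tested members of this list, also chosen after values were seen, 5 rose, none fell and 21 were not called. Their median log2 difference of 0.06 had no stable sign, at −0.35 and −0.158 without KRT-positive replicate 1 or 3 and 0.748 in the libraries whose levels fell with GC content. The KRT-negative libraries, against the same controls, had 26.3, 26.5 and 25.9 CPM of ABCB1, between the 2 groups compared here.

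Epithelial junction genes, which hold neighbouring cells together, rose in part. Of 28 tested members 11 rose, 1 fell and 16 were not called, and their median log2 difference was 1.22. CDH1 (chromosome 16, 68737225 to 68835548, GRCh38), E-cadherin, the adhesion receptor of epithelia, had 365, 484 and 605 CPM in the labelled KRT-positive and 71.4, 42.2 and 72.3 in unsorted libraries (log2 2.97, SE 0.29, adjusted p = 1.43e-05). CLDN7, a tight junction claudin, had 919.9, 764 and 904 against 69.1, 41.1 and 150.3 CPM (log2 3.32, SE 0.40, adjusted p = 0.0001). DSC2, a desmosomal cadherin, had 625, 803 and 746 against 112, 73.7 and 62.0 CPM (log2 3.13, SE 0.26, adjusted p = 3.94e-06). In all 3 genes the lowest labelled KRT-positive library was several-fold above the highest unsorted one.

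ESRP1, a splicing factor of epithelial cells, had 122, 144 and 145 against 41.6, 36.6 and 36.5 CPM and rose (log2 1.84, adjusted p = 0.00155). EPCAM, an epithelial surface marker, had 411, 608 and 636 against 245, 184 and 215 CPM and rose (log2 1.36, adjusted p = 0.00161). CTNNB1, beta-catenin, the junction protein that also carries the Wnt signal, was the member that fell, at 496, 412 and 333 against 709, 871 and 899 CPM (log2 −0.999, adjusted p = 0.00656, and 0.0533 without KRT-positive replicate 3). It was named after its value was seen. CDH1 in the KRT-negative libraries stood at 398, 620.0 and 585 CPM, overlapping the labelled KRT-positive libraries.

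Genes of class I antigen presentation and of the interferon response rose in part. Class I molecules, made of an HLA heavy chain and the small subunit B2M, show peptides to T cells, and interferon-stimulated genes are switched on after viral or double-stranded RNA is sensed. B2M had 1278, 1414 and 1408 CPM in the labelled KRT-positive and 256, 231 and 262 in unsorted libraries (log2 2.45, SE 0.20, adjusted p = 3.61e-06). HLA-B had 731, 651 and 649 against 121, 115 and 159.7 CPM (log2 2.36, SE 0.22, adjusted p = 8.28e-06). Both groups were tight, and B2M was about 5.47-fold and HLA-B 5.14-fold higher in the labelled KRT-positive libraries. HLA genes are alike in sequence, and reads may be shared among them. HLA-C rose as well (513, 349 and 397 against 104, 139 and 204 CPM, log2 1.49, adjusted p = 0.00171). HLA-E (220.2, 147 and 169 against 54.1, 41.7 and 94.5 CPM) rose in the full fit (log2 1.497, adjusted p = 0.0122), with an adjusted p of 0.0621 without KRT-positive replicate 1 and 0.0546 without unsorted replicate 2. Of 17 tested class I genes, in a list chosen after values were seen, 4 rose, none fell and 13 were not called by edgeR, with a median of 1. DESeq2 and the fit with a GC term each called 1 member lower, and 3 were lower at an unadjusted p under 0.05. With no overlap 4 of the 17 were lower, against 14.7% of all tested genes.

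In the interferon and double-stranded RNA list, 34 of 44 members were tested, 10 rose, none fell and 24 were not called, with a median log2 difference of 1.3 (2.02 in the libraries whose levels fell with GC content). B2M, HLA-B and HLA-C are members of both lists. ISG15, a ubiquitin-like protein, had 563, 504 and 529 against 77.1, 165 and 150.1 CPM (log2 2.03, SE 0.27, adjusted p = 0.000232). CD274, the checkpoint ligand PD-L1, had 14.5, 27.5 and 29.9 against 0, 0 and 0.213 CPM, a ratio of 431 (95% counting interval 77.0 to 17029) from 1 unsorted count, and rose (edgeR adjusted p = 0.000232). APOL6, an apolipoprotein L that interferon induces, had 25.0, 9.63 and 22.8 against 0, 0 and 0.213 CPM, a ratio of 334 (95% counting interval 59.7 to 13205) (edgeR adjusted p = 0.00129). IFIH1, the double-stranded RNA sensor MDA5, named after its value was seen, had 48.8, 45.0 and 56.7 against 3.09, 5.75 and 0.853 CPM (log2 3.93, adjusted p = 0.00184). The other sensor DDX58, RIG-I, at 34.5, 36.0 and 30.4 against 8.45, 4.74 and 7.89 CPM, had an edgeR adjusted p of 0.048 in the full fit and of 0.0806 to 0.15 when any 1 of the 6 libraries was left out.

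The promoters of B2M and ISG15 are shown because they carry the interferon-stimulated element core, which reads GAAA, NN (any 2 bases), GAAA, and which the search found on either strand in 3.57% of 35116 RefSeq promoter windows of the same length (250 bases before to 50 after the start, build GRCh38.p14). Both genes hold 2 overlapping matches, written in capitals, and of 35 members of the interferon list with a window 22 hold at least 1 (62.9%). A match describes letters and is neither a bound site nor a cause. Read 5′ to 3′ on the gene's strand, the windows are B2M at chr15:44711267-44711566, plus strand, and ISG15 at chr1:1013247-1013546, plus strand.
B2M: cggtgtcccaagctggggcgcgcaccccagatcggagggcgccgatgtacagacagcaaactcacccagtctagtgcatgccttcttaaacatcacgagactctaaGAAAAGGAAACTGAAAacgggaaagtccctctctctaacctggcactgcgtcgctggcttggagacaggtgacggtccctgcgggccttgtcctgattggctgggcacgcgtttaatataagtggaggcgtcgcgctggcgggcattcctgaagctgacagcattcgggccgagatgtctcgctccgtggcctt
ISG15: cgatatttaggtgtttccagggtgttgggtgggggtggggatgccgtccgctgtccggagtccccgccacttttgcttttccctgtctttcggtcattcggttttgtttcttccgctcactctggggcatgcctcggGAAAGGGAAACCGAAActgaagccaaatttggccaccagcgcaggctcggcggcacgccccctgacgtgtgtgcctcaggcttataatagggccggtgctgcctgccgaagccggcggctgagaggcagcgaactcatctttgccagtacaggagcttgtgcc

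Target genes of VDR and the PPAR receptors, whose ligands the differentiation medium contains, rose in part. CYP24A1 (chromosome 20, 54153449 to 54173973, GRCh38), the vitamin D hydroxylase that VDR induces, had 83.9, 131 and 93.5 CPM in the labelled KRT-positive and 8.78, 12.8 and 17.3 in unsorted libraries (log2 2.996, SE 0.33, adjusted p = 4.14e-05). SERPINB1, a protease inhibitor, had 340.3, 310.3 and 369.7 against 71.4, 61.2 and 128 CPM (log2 1.97, adjusted p = 0.000523), and EFTUD1, a ribosome assembly GTPase, 96.4, 114 and 149 against 19.998, 30.7 and 14.9 CPM (log2 2.45, adjusted p = 0.000578). Of 15 tested VDR targets 5 rose, none fell and 10 were not called by edgeR, while DESeq2 called 7 higher and 1 lower. The median of 1.56 was 0.946 without unsorted replicate 3 and 0.84 in the libraries whose levels fell with GC content. CYP24A1 was at 455, 409 and 267 CPM in the KRT-negative libraries, above both groups compared here. VDR itself had 14.8, 37.4 and 46.3 against 19.998, 32.3 and 27.1 CPM with overlapping groups.

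ANGPTL4, a secreted inhibitor of lipoprotein lipase, had 153, 145 and 81.4 against 13.3, 17.5 and 25.2 CPM and rose (log2 2.77, SE 0.32, adjusted p = 6.48e-05). PLIN2, a coat protein of lipid droplets, had 435, 407 and 515 against 107, 109 and 168 CPM (log2 1.82, SE 0.24, adjusted p = 0.000211). SLC25A20, the carnitine carrier of mitochondria, had 84.9, 110.0 and 89.9 against 25.5, 14.9 and 27.7 CPM (log2 2.06, adjusted p = 0.00205). Of 23 tested PPAR targets 6 rose, none fell and 17 were not called. The median of 1.42 was 0.785 with no low-count filter, 0.783 with DESeq2 and 0.786 with only the groups compared. PPARG, the receptor itself, varied among unsorted libraries (81.4, 56.0 and 61.6 against 9.76, 0 and 3.41 CPM), with an edgeR adjusted p of 0.0313 in the full fit and 0.084, 0.0728, 0.0794 and 0.162 without KRT-positive replicate 1, 2 or 3 or unsorted replicate 3. The KRT-negative libraries held 522, 728 and 846 CPM of ANGPTL4 and 1010.3, 1241 and 1509.7 of PLIN2, higher than the labelled KRT-positive libraries in each case.

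Of the 38 colonocyte differentiation genes listed, 17 had no count in any of the 6 libraries, SI, ALPI, FABP1 and VIL1 among them. Of the 16 that were tested, 5 rose, none fell and 11 were not called, with a median of 1.43. CEACAM1 and CEACAM5, given above, are 2 of the 5. KLF5, a transcription factor of gut epithelium, had 125, 142 and 158 against 19.5, 30.9 and 9.81 CPM and rose (log2 2.81, SE 0.48, adjusted p = 0.00139). The count was 3 without KRT-positive replicate 1 or without unsorted replicate 1. By edgeR no member of the goblet and mucus (6 tested), enteroendocrine (4) or tuft and Paneth (4) lists was called. At an unadjusted p under 0.05, by DESeq2 and without unsorted replicate 2, 1 goblet gene was higher, while the other two lists had 0 members at that p or by DESeq2. Of the 21 goblet genes listed 10 had no count in any of the 6 libraries, the markers MUC2 and ATOH1 among them. The summed level of the goblet list was 157 to 198 CPM in the labelled KRT-positive and 48.0 to 149.5 in unsorted libraries, with no overlap. Its highest member was KLK6, at up to 193 CPM. Among 20 tested stem cell and Wnt target genes 2 fell and none rose. Lower calls numbered 1 without KRT-positive replicate 2, 4 with no low-count filter and 6 with DESeq2. With no overlap 9 members of this list were lower, against 14.7% of all tested genes. DKK1 (chromosome 10, 52314296 to 52318042, GRCh38), a secreted Wnt inhibitor that Wnt signalling itself induces, had 36.5, 60.8 and 30.8 CPM in the labelled KRT-positive and 594, 332 and 415 in unsorted libraries and fell (log2 −3.39, SE 0.35, adjusted p = 2.45e-05).

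**Figure D4:**
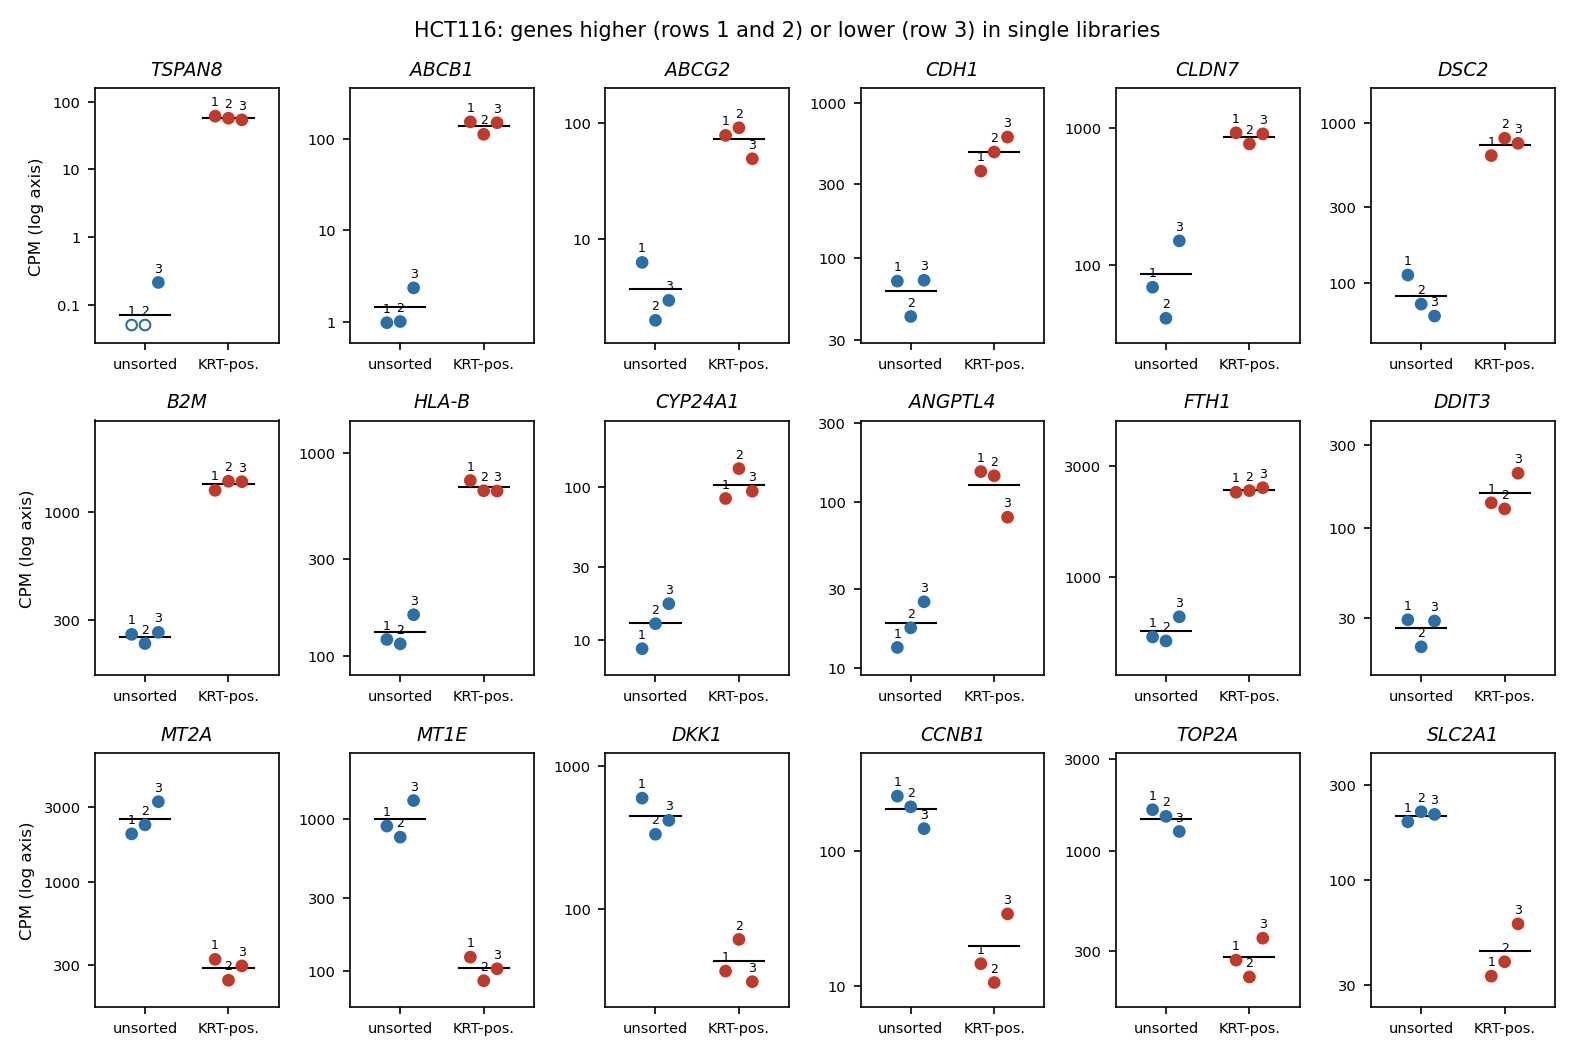
Each panel plots the CPM (log axis) of 1 gene in the 3 unsorted (blue) and 3 labelled KRT-positive (red) HCT116 libraries, numbered by replicate, with black lines at the group means and open circles at 0.05 for 0 counts. In the upper 2 rows every labelled KRT-positive library lies above every unsorted one, and in the bottom row every one lies below.

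Stress and lysosome genes rose in part. The transcription factor ATF4 and the unfolded protein response adjust amino acid supply and protein folding under stress, and DDIT3 (CHOP), a stress-induced transcription factor, had 139, 128 and 207 against 29.3, 20.4 and 28.8 CPM (log2 2.60, SE 0.32, adjusted p = 0.000108). CHAC1, which degrades glutathione, had 28.4, 57.2 and 52.7 against 4.55, 4.60 and 2.99 CPM (log2 3.50, adjusted p = 0.000236), and SLC7A11, the cystine importer, 73.1, 241 and 118 against 12.4, 19.1 and 22.8 CPM (log2 2.99, adjusted p = 0.000255). SLC7A11 spread widely, with KRT-positive replicate 2 about 3 times replicate 1. Of 33 tested members 9 rose, 2 fell and 22 were not called (median 0.57), with 1 lower call without KRT-positive replicate 2, KRT-positive replicate 3 or unsorted replicate 3. HSPA5, the chaperone BiP that marks the folding branch and is among the 10 genes of highest level, had 5215, 4094 and 4780.2 against 4168, 4529 and 5829 CPM with overlapping groups (log2 −0.04, adjusted p = 0.939).

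Of 28 tested p53 targets 8 rose, none fell and 20 were not called, with a median of 0.56. GADD45A, a growth arrest protein, had 364, 318 and 414 against 98.7, 80.9 and 70.4 CPM (log2 2.13, SE 0.24, adjusted p = 4.54e-05). RRM2B, the p53-induced subunit of ribonucleotide reductase, had 268, 279.8 and 292 against 59.8, 65.6 and 72.1 CPM (log2 2.09, SE 0.24, adjusted p = 6.8e-05), and ZMAT3, an RNA-binding protein, 237, 188 and 223 against 52.4, 51.9 and 59.3 CPM (log2 1.99, adjusted p = 0.00028). CDKN1A, the cell cycle inhibitor p21 and a p53 target, had 559, 423 and 509.7 against 190.2, 256 and 316 CPM (log2 0.97, adjusted p = 0.0126), and the adjusted p was 0.0606, 0.0512 and 0.0609 without KRT-positive replicate 1, KRT-positive replicate 3 or unsorted replicate 1. The p53 and apoptosis lists share TNFRSF10B, a death receptor (189, 227 and 244 against 86.5, 61.3 and 64.4 CPM, log2 1.64, adjusted p = 0.00062).

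Among 30 tested apoptosis regulators 5 rose and 1 fell, with 3 higher calls without KRT-positive replicate 1 and 2 lower calls without KRT-positive replicate 2, and the caspase inhibitor XIAP rose (194, 175 and 159 against 62.1, 62.6 and 63.5 CPM, log2 1.49, adjusted p = 0.00232). BIRC5 (survivin), which also acts in mitosis, was the member that fell (12.3, 46.8 and 36.6 against 251, 246 and 296 CPM, log2 −3.05, adjusted p = 0.000275). Lysosome and autophagy genes rose in 7 of 34 members, with none lower (12 higher on library totals) and a median of 0.61. SQSTM1 (p62), the autophagy cargo receptor, had 601, 892 and 978 against 261, 218 and 224 CPM (log2 1.81, SE 0.22, adjusted p = 9.04e-05), and MAP1LC3B, an autophagosome membrane protein, 359.8, 429 and 334 against 73.3, 146 and 135 CPM (log2 1.66, adjusted p = 0.000684). GLB1, lysosomal beta-galactosidase, had 219, 223 and 245 against 53.7, 17.8 and 77.2 CPM (log2 2.21, adjusted p = 0.00173).

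FTH1 (chromosome 11, 61959718 to 61967660, GRCh38), the ferritin heavy chain that stores iron, had 2319.9, 2358 and 2428 CPM in the labelled KRT-positive and 556, 534 and 678 in unsorted libraries (log2 2.01, SE 0.18, adjusted p = 7.2e-06), although ferritin has many near-identical pseudogenes that can share its reads. The NRF2 antioxidant and iron list, which also holds SQSTM1, had 2 of 24 tested members called higher, 4 lower and 18 not called. The peroxide-removing enzyme PRDX1 fell (1061, 841 and 945 against 2149, 2166 and 3087 CPM, log2 −1.38, adjusted p = 0.000628), as did the quinone reductase NQO1 (158, 154 and 136 against 328, 338 and 327 CPM, log2 −1.15, adjusted p = 0.00347). Lower calls numbered 2 without KRT-positive replicate 1, KRT-positive replicate 3 or unsorted replicate 3.

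Genes of mitosis had the largest share of lower calls among the lists described here. Of 38 members, all tested, 28 fell, none rose and 10 were not called, with a median log2 difference of −2.36. TOP2A, the topoisomerase that untangles replicated chromosomes, had 268, 219 and 349 CPM in the labelled KRT-positive and 1638, 1512 and 1261 in unsorted libraries (log2 −2.40, SE 0.26, adjusted p = 3.59e-05). CCNB1, cyclin B1, which drives entry into mitosis, had 14.6, 10.6 and 34.2 against 257, 214 and 147 CPM (log2 −3.38, SE 0.44, adjusted p = 0.000181). UBE2C, which tags mitotic proteins for destruction, had 46.0, 58.8 and 67.4 against 331, 252 and 383 CPM (log2 −2.49, SE 0.31, adjusted p = 0.000108). Every labelled KRT-positive library lay several-fold below every unsorted library in these genes. STMN1, a microtubule regulator, was steady within groups (396, 404 and 391 against 1175, 1174 and 1165 CPM, log2 −1.56, adjusted p = 0.000216). KIF11, the spindle motor, had 2.25, 1.40 and 8.65 against 74.3, 60.9 and 23.7 CPM (log2 −3.69, adjusted p = 0.00673). In bulk RNA a smaller share of dividing cells and less of these transcripts per cell cannot be told apart.

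The promoters of CCNB1 and TOP2A are shown because they hold the CCAAT box (letters CCAAT, either strand, in 34.6% of all windows), and TOP2A also the CHR element letters TTTGAA (15.2%), which occur in promoters of cell cycle genes. CCNB1 holds 2 CCAAT boxes and no TTTGAA in its window, and TOP2A 4 and 2. Both sets of letters stand in 18 of the 32 mitosis members with a window (56.2%), against 5.9% of all windows, while 2 of 39 DNA replication members with a window hold both (5.13%). The windows are CCNB1 at chr5:69166900-69167199, plus strand, and TOP2A at chr17:40417847-40418146, minus strand, with matches in capitals.
CCNB1: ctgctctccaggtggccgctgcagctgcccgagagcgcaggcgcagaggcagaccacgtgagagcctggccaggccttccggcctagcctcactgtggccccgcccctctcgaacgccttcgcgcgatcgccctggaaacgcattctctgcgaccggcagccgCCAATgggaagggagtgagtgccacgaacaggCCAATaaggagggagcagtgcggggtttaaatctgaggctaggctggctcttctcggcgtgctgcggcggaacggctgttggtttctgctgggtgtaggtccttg
TOP2A: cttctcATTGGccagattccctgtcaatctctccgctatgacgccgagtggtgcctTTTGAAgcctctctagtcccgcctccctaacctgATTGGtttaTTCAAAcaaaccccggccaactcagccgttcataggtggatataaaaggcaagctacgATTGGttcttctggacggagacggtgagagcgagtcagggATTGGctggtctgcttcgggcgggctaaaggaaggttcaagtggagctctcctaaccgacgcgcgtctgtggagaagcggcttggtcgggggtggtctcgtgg

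DNA replication and S phase genes fell in 15 of 47 members, none rose and 32 were not called, with a median of −1.38. RRM2, the ribonucleotide reductase subunit that limits DNA precursor supply, had 38.8, 68.5 and 42.3 against 291, 262 and 289 CPM (log2 −2.49, SE 0.30, adjusted p = 0.000101). TYMS, thymidylate synthase, had 33.1, 50.2 and 49.5 against 213, 163 and 249 CPM (log2 −2.23, adjusted p = 0.000247), and MCM4, a subunit of the replicative helicase, 36.5, 61.2 and 30.022 against 322, 268 and 186 CPM (log2 −2.60, adjusted p = 0.000628). FEN1, the flap endonuclease of lagging strand synthesis, had 166, 110.0 and 147 against 340.3, 457 and 472 CPM (log2 −1.59, adjusted p = 0.000684). E2F8, a cell cycle repressor, was at 0 in all 3 labelled KRT-positive libraries against 15.8, 7.90 and 7.25 CPM, at least 103-fold lower, with an edgeR adjusted p of 0.0426 that was 0.0829 to 0.123 when any 1 of the 6 libraries was left out. DDIAS, a DNA damage-induced suppressor of apoptosis, had 0.965, 0 and 0 against 28.5, 26.4 and 17.5 CPM (edgeR adjusted p = 0.0101).

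Among 18 tested G1 cyclins and CDK inhibitors 3 rose and 1 fell, with 0 higher calls without KRT-positive replicate 1 and 1 without unsorted replicate 1 or 2. CDK2, the kinase of S phase entry, fell (84.6, 139 and 148 against 347, 298 and 524 CPM, log2 −1.65, SE 0.28, adjusted p = 0.00148).

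Metallothioneins, small cysteine-rich proteins that bind zinc and copper and whose genes metals induce, included the 2 lower genes of smallest p, MT2A and MT1E. MT2A had 324, 239 and 294 CPM in the labelled KRT-positive and 2025, 2311 and 3241 in unsorted libraries, about 8.84-fold lower (log2 −3.14, SE 0.23, adjusted p = 2.4e-06). MT1E had 124, 87.0 and 104 against 892, 755 and 1310.2 CPM (log2 −3.23, SE 0.26, adjusted p = 3.61e-06). The groups were separated by far more than the spread within them for both genes. MT1X had 26.8, 19.3 and 39.1 against 60.8, 99.8 and 134 CPM (log2 −1.79, adjusted p = 0.0285), and the adjusted p was 0.0984, 0.118, 0.0672 and 0.124 without KRT-positive replicate 1 or 2 or unsorted replicate 2 or 3. Of 7 tested members, in a list chosen after values were seen, 3 fell, none rose and 4 were not called. Members are near-identical in sequence, so counts may be divided among them. The KRT-negative libraries held 447, 524 and 610.1 CPM of MT2A.

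The MT2A and MT1X promoters are shown because they hold repeats of the metal response element core TGCNCNC, counted on both strands with overlaps. At least 1 match is common (55.9% of all windows) and at least 2 stand in 24.2%, whereas MT2A holds 8 and MT1X 4, in capitals below. The windows are MT2A at chr16:56608334-56608633, plus strand, and MT1X at chr16:56682220-56682519, plus strand.
MT2A: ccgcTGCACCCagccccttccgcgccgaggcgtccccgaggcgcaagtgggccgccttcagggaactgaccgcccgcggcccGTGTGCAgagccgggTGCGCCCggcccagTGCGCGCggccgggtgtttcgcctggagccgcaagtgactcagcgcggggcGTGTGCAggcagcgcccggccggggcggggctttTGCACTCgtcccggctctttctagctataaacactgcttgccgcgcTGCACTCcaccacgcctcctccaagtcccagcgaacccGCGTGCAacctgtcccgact
MT1X: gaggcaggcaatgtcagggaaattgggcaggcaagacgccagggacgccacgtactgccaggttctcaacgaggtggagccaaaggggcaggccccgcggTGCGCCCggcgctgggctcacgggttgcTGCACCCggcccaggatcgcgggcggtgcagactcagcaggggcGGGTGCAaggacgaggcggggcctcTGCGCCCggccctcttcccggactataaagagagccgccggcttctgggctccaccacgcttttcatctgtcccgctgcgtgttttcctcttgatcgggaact

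Genes that make ribosomes and process RNA fell in part. FBL, the methyltransferase of ribosomal RNA, had 82.6, 84.2 and 83.8 CPM in the labelled KRT-positive and 452, 441 and 614 in unsorted libraries (log2 −2.59, SE 0.25, adjusted p = 1.43e-05), and of 27 nucleolar genes 11 fell and none rose, with 7 and 5 without KRT-positive replicate 1 or 3 and 7 on library totals. NCL (nucleolin) had 1016, 1039 and 889.7 against 2656, 2454 and 2038 CPM (log2 −1.28, adjusted p = 0.000324). Of 27 hnRNP genes, which package and splice messenger RNA precursors, 16 fell and none rose, with a median of −1.19. HNRNPA2B1 had 274, 370.4 and 343 against 1177, 939 and 1024 CPM (log2 −1.67, SE 0.20, adjusted p = 0.000104). Both lists were chosen after values were seen.

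Of 83 tested cytosolic ribosomal protein genes 28 fell, none rose and 55 were not called, with a median of −0.56 (−0.349 on library totals). The share called was 33.7%, against 9.28% of all tested genes and 48.8% of genes at 500 CPM and above. Many ribosomal protein genes have high levels, and the shares were not matched for level. Without overlap of the libraries 59 were lower and 1 higher, against 14.7% and 15.6% of all tested genes. Lower calls numbered 17, 14 and 13 without KRT-positive replicate 1, 2 or 3, and 17 on library totals. RPL11, a protein of the large subunit, had 617, 666 and 642 against 1258, 1147 and 1614 CPM (log2 −1.06, adjusted p = 0.00185). Ribosomal protein genes have many pseudogene copies that may share reads. Mitochondrial ribosomal proteins fell in 13 of 77 members, with 6 without KRT-positive replicate 2, 5 without unsorted replicate 3 and 8 on library totals. Nuclear-encoded subunits of oxidative phosphorylation fell in 13 of 80, with 8, 6 and 7 without KRT-positive replicate 1, 2 or 3, 8 on library totals, and a median of −0.52 (−0.305 on library totals). ATP5G1, a subunit of ATP synthase, had 158, 162 and 177 against 367, 391 and 586 CPM (log2 −1.43, adjusted p = 0.00173). No member of these 3 lists was called higher, apart from 1 oxidative phosphorylation gene without unsorted replicate 1 or 2, on library totals, with no filter or with DESeq2.

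Glycolysis and hypoxia genes were lower in 13 of 32 tested members, with 7 and 8 without KRT-positive replicate 1 or 3, and a median of −0.78. SLC2A1, the glucose transporter GLUT1, had 33.0, 39.0 and 60.4 against 196, 219.9 and 213 CPM (log2 −2.25, SE 0.31, adjusted p = 0.000265). ENO1, enolase, had 433, 420.4 and 394 against 1136, 1404 and 1203 CPM (log2 −1.58, SE 0.19, adjusted p = 8.54e-05), and SLC16A3, the lactate exporter, 74.1, 72.7 and 67.1 against 184, 193 and 267 CPM (log2 −1.59, adjusted p = 0.00264). The 2 members called higher, VEGFA (27.9, 101 and 184 against 25.0, 25.7 and 48.0 CPM, with overlapping groups) and P4HA1 (83.2, 119 and 162 against 42.3, 50.4 and 61.2 CPM), both hypoxia-induced, lost the call without KRT-positive replicate 2 or 3 or unsorted replicate 1 or 2. Their edgeR adjusted p-values were 0.0431 and 0.0181 in the full fit and 0.276 and 0.116 without KRT-positive replicate 3.

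Among 30 cholesterol and fatty acid synthesis genes 7 fell, with a median of −0.24 that was −0.0542 and −0.0695 without unsorted replicate 1 or 3, −0.477 without unsorted replicate 2, −0.394 without KRT-positive replicate 3 and −0.0215 on library totals. SCD, the desaturase that makes monounsaturated fatty acids, had 182, 216 and 244 against 623, 797 and 906 CPM (log2 −1.86, SE 0.22, adjusted p = 9.04e-05), and FASN, fatty acid synthase, 95.5, 178 and 119 against 328, 434 and 428 CPM (log2 −1.60, adjusted p = 0.00111).

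Immediate early and heat shock genes fell in 11 of 34 members, 1 rose (0 without KRT-positive replicate 1 or 2 or unsorted replicate 1 or 3) and 22 were not called. The median of −0.46 was −0.703 and −0.698 without KRT-positive replicate 1 or 3 and −0.241 on library totals. IER3, an early response gene, had 756, 598 and 748 CPM in the labelled KRT-positive and 3968, 4187 and 9900.1 in unsorted libraries (log2 −3.10, SE 0.34, adjusted p = 4.14e-05). HSPD1, the mitochondrial chaperone HSP60, had 396, 448 and 312 against 1677, 1819 and 1754 CPM (log2 −2.18, SE 0.20, adjusted p = 7.36e-06). IER3 was highest in unsorted replicate 3, which was more than 2 times either other unsorted library. Among the 10 genes of highest level, the cytoskeletal genes ACTG1 (4286, 4425 and 4153 against 11303, 10989.7 and 14820.2 CPM, log2 −1.53, adjusted p = 2.95e-05) and TUBA1B (1406, 1184 and 1543 against 4386, 4848 and 6095 CPM, log2 −1.89, adjusted p = 1.43e-05) fell, and both belong to families with near-identical copies.

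Lower genes outside the lists included FAM198B, a Golgi protein at 0, 0 and 0.521 against 92.2, 66.2 and 55.6 CPM (edgeR adjusted p = 0.00069), and TMSB15A, an actin-binding thymosin at 8.79, 3.37 and 3.44 against 76.7, 91.8 and 84.9 CPM (log2 −4.02, SE 0.54, adjusted p = 0.000247). In FAM198B, 2 of the 3 labelled KRT-positive libraries held no count.

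The machinery of histone H3 lysine 9 methylation, in which SETDB1 works, was lower in 4 of 25 tested members, higher in none and not called in 21, with a median of −0.24. DNMT1, the maintenance DNA methyltransferase, had 262, 205 and 234 against 645, 589 and 563 CPM (log2 −1.36, SE 0.21, adjusted p = 0.000684). CBX3, a heterochromatin protein that reads the mark, had 931, 550.4 and 636 against 1535, 1808 and 1711 CPM (log2 −1.26, adjusted p = 0.00526), and TRIM28, the corepressor that brings SETDB1 to its targets, 25.5, 29.7 and 36.8 against 76.1, 98.4 and 116 CPM (log2 −1.66, adjusted p = 0.00592). The list's median was −0.0307 on library totals, −0.399 without KRT-positive replicate 3 and −0.369 without unsorted replicate 2.

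Zinc finger genes, clustered protocadherins and germline genes are known as classes that SETDB1 can silence. Of 330 tested zinc finger ZNF genes 5 rose and 1 fell (1.82%, against 9.28% of all tested genes), with a median of 0.12 that was 0.196, 0.278 and 0.262 without unsorted replicate 1, 2 or 3 and 0.216 without KRT-positive replicate 3. The higher calls were 1, 3 and 3 without KRT-positive replicate 1, 2 or 3 and 3 without unsorted replicate 2, against 10 on library totals and 14 with DESeq2, and the lower calls 2 without KRT-positive replicate 3 and 7 with DESeq2. Without overlap of the libraries 41 ZNF genes were higher and 15 lower, against 15.6% and 14.7% of all tested genes. The 9.28% was not matched for level, and calls rose from 1.42% at 5 to 20 CPM to 48.8% at 500 CPM and above. ZNF655 had 91.0, 125 and 112 against 33.5, 24.3 and 43.5 CPM (log2 1.70, SE 0.34, adjusted p = 0.00415). By edgeR none of 5 tested clustered protocadherins was called (1 higher at an unadjusted p under 0.05 and 1 by DESeq2), and 35 of 53 listed had no count in any of the 6 libraries. The median of the 5 was 2.75 (4.47 to 6.38 without any 1 library other than KRT-positive replicate 2, 1.55 with DESeq2). Of these 5, 2 were higher with no overlap, against 15.6% of all tested genes. The summed level of the protocadherin list was 39.3 to 76.9 CPM in the labelled KRT-positive and 20.04 to 28.7 in unsorted libraries, with no overlap. None of 6 tested germline and cancer-testis genes was called by edgeR (1 lower at an unadjusted p under 0.05, by DESeq2 and without KRT-positive replicate 1), with a median of −0.07 that changed sign without 4 of the 6 libraries (up to 1.02 without unsorted replicate 3) and a mean of 0.207. Of 109 tested LINC noncoding RNAs 4 rose by edgeR (3.67%, against 4.26% of all tested genes) and none fell. Without KRT-positive replicate 3, 2 were higher and 1 lower, while DESeq2 called 12 higher and 2 lower. At an unadjusted p under 0.05, 17 were higher and 4 lower. Without overlap of the libraries 24 LINC members were higher and 6 lower, against 15.6% and 14.7% of all tested genes. The 4.26% was not matched for level either. The median of the LINC list was 0.563 (0.337 without KRT-positive replicate 2, 0.972 without unsorted replicate 3, 0.209 with DESeq2). The summed level was 1870.2 to 1975 CPM in the labelled KRT-positive and 1266 to 1376 in unsorted libraries, with no overlap, and LINC00346 had 79.8, 51.7 and 32.8 against 3.09, 3.88 and 9.59 CPM (log2 3.32, adjusted p = 0.00142).

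Of 28 tested histone genes 3 rose and 5 fell. Higher calls numbered 1 without KRT-positive replicate 2, KRT-positive replicate 3 or unsorted replicate 1, and lower calls 3 without KRT-positive replicate 1. HIST2H2BE had 45.4, 25.8 and 11.4 against 0, 0.144 and 0.213 CPM, a ratio of 243 (95% counting interval 67.0 to 2009) (edgeR adjusted p = 0.000578), while HIST1H4C, read here through polyadenylated transcripts, had 258, 151 and 238 against 1292, 958 and 802 CPM (log2 −2.24, SE 0.26, adjusted p = 7.32e-05). The 3′ tag needs a poly(A) tail, which most replication-dependent histone transcripts lack.

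**Figure D5:**
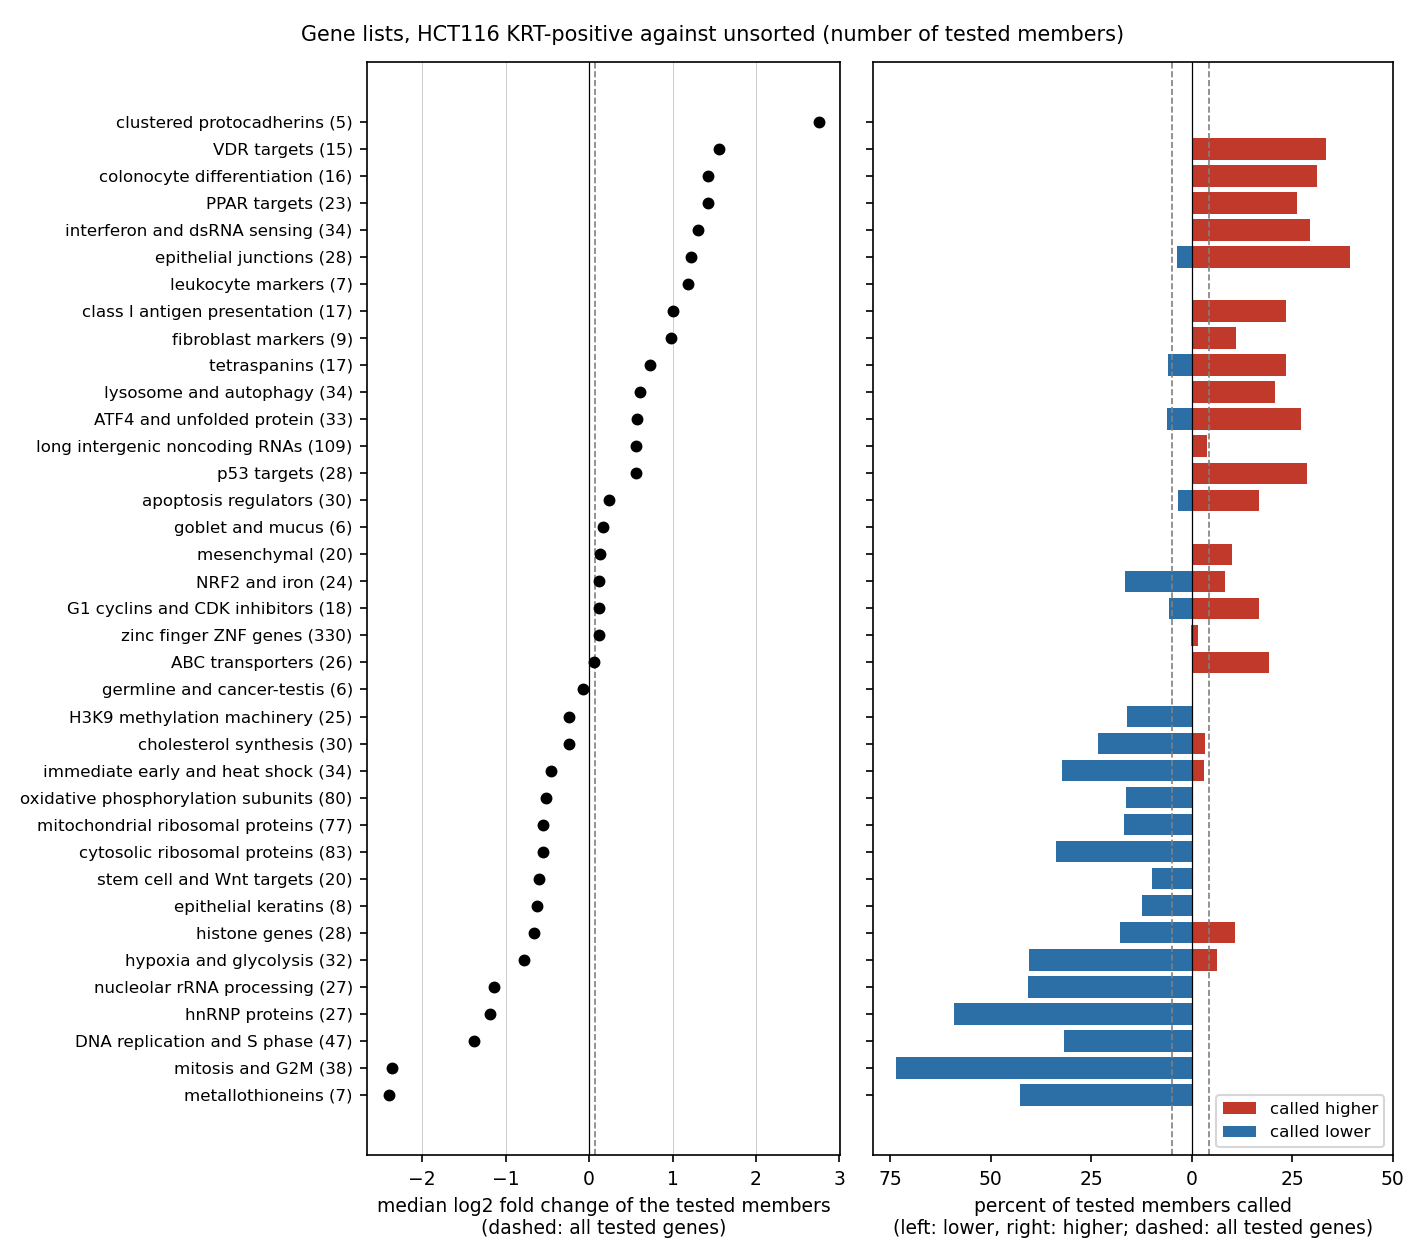
For each list with at least 5 tested members (number in parentheses), the left panel plots the median log2 fold change of labelled KRT-positive over unsorted HCT116 libraries, and the right panel the percent of tested members called lower (blue, left) or higher (red, right), with dashed lines for all tested genes. The medians range from metallothioneins at −2.40 and mitosis at −2.36 to VDR targets at 1.56 and the 5 tested clustered protocadherins at 2.75, of which none was called.

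Markers of other cell types were given by their summed levels. Of 20 leukocyte markers 7 were tested and none was called by edgeR (2 higher at an unadjusted p under 0.05, 1 by DESeq2 and 1 without unsorted replicate 1). Of these 20, 7 had no count in any of the 6 libraries, CD3D, CD14 and MS4A1 among them, and the summed level was 27.6 to 79.1 CPM in the labelled KRT-positive and 9.59 to 31.6 in unsorted libraries. Of 10 endothelial markers 1 was tested and not called, with sums of 16.7 to 27.1 and 14.5 to 42.9 CPM, and CDH5, ERG and TIE1 were at 0 in all 6 libraries. Of 16 fibroblast markers 9 were tested and 1 was called higher, with sums of 196 to 256 and 106 to 156 CPM, and FAP, PDGFRA and THY1 were at 0 in all 6. That member, COL6A1 (109.5, 82.7 and 125 against 52.8, 46.2 and 53.1 CPM, adjusted p = 0.037), a collagen many cells make, lost the call without any 1 library other than KRT-positive replicate 2, with values of 0.0744 to 0.155. Of 20 tested mesenchymal genes 2 rose and none fell (1 fell without KRT-positive replicate 1), among them the protease inhibitor SERPINE2 (1086, 1373 and 1002 against 455, 389 and 285 CPM, log2 1.62, SE 0.23, adjusted p = 0.000315). The part of these markers in the other results was not tested.

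SW480, another colorectal cancer line, was sampled with the same labels and shares no library with HCT116, so the same contrast could be set beside it. There 460 of 13252 tested genes were called (3.47%). Of 1210 genes called in HCT116 and tested in SW480, 1015 had the same sign (83.9%), against 62.6% of the 12055 genes tested in both lines. A total of 173 genes were called in both, 170 of them in the same direction. The difference between the lines, tested as an interaction over both, was called in 161 of 14851 genes (1.08%), 78 higher in HCT116 and 83 higher in SW480. Without HCT116 replicates the number was 68 to 101 for those that moved it by over 1.5 times (KRT-positive 1, 2 and 3 and unsorted 1 and 2), without SW480 replicates 70 to 294 (KRT-positive 1 and 2 and unsorted 1, 2 and 3), and with only the groups compared it was 72.

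FTH1 rose in HCT116 but had 2749, 2492 and 3005 CPM in labelled KRT-positive and 3044, 2706 and 3013 in unsorted SW480 libraries, and the lines differed (log2 2.10, SE 0.20, adjusted p = 9.99e-06). B2M had 1384, 1003 and 1383 against 927, 945 and 912 CPM in SW480, where unsorted cells already held several-fold more than unsorted HCT116 cells, and the lines differed (log2 2.02, SE 0.23, adjusted p = 6.19e-05). HLA-B had 256, 222 and 191 against 195, 209 and 270.3 CPM in SW480 and differed likewise (log2 2.37, SE 0.30, adjusted p = 0.000164). NEAT1, a nuclear noncoding RNA, had 631, 775 and 681 against 327, 300.1 and 241 CPM in HCT116 and 947, 1165 and 1089.7 against 1712, 2384 and 2209.8 in SW480 (log2 2.24, SE 0.26, adjusted p = 6.19e-05). In the opposite direction, NR2F1, an orphan nuclear receptor, had 87.9, 82.6 and 41.5 against 431, 406 and 306 CPM in HCT116 and 45.4, 84.2 and 38.4 against 17.1, 31.9 and 20.4 in SW480 (log2 −3.70, SE 0.51, adjusted p = 0.000391). HSPD1 had 778, 849 and 654 against 1087, 1133 and 955 CPM in SW480, a smaller difference than in HCT116 (log2 −1.70, SE 0.24, adjusted p = 0.000391).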

How the data were processed

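Libraries were made with the QuantSeq 3′ kit from 500 ng of RNA, per the labels' protocols. The authors deposited 1 table of raw read counts per library. The submitters' processing notes name Bowtie2, edgeR and the build hg19, with no versions or roles, and the counting tool and its use of strand are not given in the sources used here. The count tables had 25737 lines, of which 1561 repeated 286 symbols, and lines of 1 symbol were summed to 24462 symbols. The 9 HCT116 libraries were fitted together with edgeR 4.0.16 (R 4.3.3), using quasi-likelihood F tests, robust dispersions, TMM factors and the filterByExpr filter, so KRT-negative libraries shared the estimate of spread. A gene was called at a Benjamini-Hochberg adjusted p under 0.05 over 13279 genes, and SE comes from dividing a log2 fold change by its F statistic's square root. The SW480 contrast was fitted on the SW480 libraries alone, over 13252 genes. The difference between the lines came from a joint fit of 18 libraries, over 14851 genes. Levels are CPM with TMM factors. For groups without a count, folds are bounds that take 3 counts for the whole group. For groups with 1 to 3 counts, the count ratio has a 95% exact interval, which covers counting error only, and replicates varied more. With 3 libraries against 3 an exact permutation test could not go below 0.10, and none was used.

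Named genes were SETDB1 and the keratins, the 12 called genes per direction of largest fold (libraries not overlapping, higher group at 10 CPM or more), the 4 members of smallest p per list, the 10 genes of highest level and 5 per direction of the difference from SW480. EPCAM was named as an epithelial marker, and CTNNB1, IFIH1, DDX58, VDR, PPARG, VEGFA, P4HA1 and the genes outside the lists in the closing section were chosen after their values were seen. Not every gene the rule allows is reported here. Members and lists were chosen with earlier results of these data known, and the lists of metallothioneins, class I, ABC transporters, tetraspanins, hnRNP, nucleolar and mitochondrial ribosomal proteins after their values were seen. In simulated counts for HCT116 KRT-positive against unsorted (12822 genes), 93 genes were changed 4-fold and 97 were changed 2-fold. Of these, 32.3% and 4.12% were recovered by edgeR, which called 4 unchanged genes. Far fewer genes were changed there than the 1232 called here, and the adjusted p depends on that number. The recovery shares therefore do not carry over to the real comparison. Alternatives were RLE factors, library totals, no filter, DESeq2 1.42.0, each library left out, a fit of only the groups compared, a replicate block, only libraries whose levels fell with GC content and a GC term. Gene positions are from GENCODE 29 (GRCh38), not the authors' hg19, and promoter sequences from RefSeq (GRCh38.p14).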

Additional observations from a re-analysis of the deposited data

Results flagged for a closer look

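The effect of the contrast differed between HCT116 and SW480, by an interaction term in edgeR, in 161 genes. All 10 genes named from them kept an adjusted p under 0.05 in every alternative run. Higher in HCT116 were FTH1 (a log2 difference of the 2 effects of 2.10), NEAT1 (2.24), B2M (2.02), HLA-B (2.37) and SERINC2, a serine incorporator membrane protein (3.63). SERINC2 had 201, 214 and 212 CPM in the labelled KRT-positive and 29.1, 40.1 and 77.5 in unsorted HCT116 libraries, against 361, 230.1 and 351 and 1011, 679 and 1035 in SW480, higher in HCT116 and lower in SW480. Higher in SW480 were NR2F1 (−3.70), HSPD1 (−1.70), ACTG1 (−1.27), S100A3, a calcium-binding protein (−8.29), and STAP2, a signalling adaptor (−7.49). S100A3 had 0 CPM in every labelled KRT-positive HCT116 library and STAP2 0, 0 and 0.101, so their fitted values depend on edgeR's prior count. Within HCT116 alone, STAP2 lost its lower call in 5 of 14 alternative runs. In unsorted HCT116 libraries S100A3 had 2.39, 7.04 and 5.58 CPM and STAP2 8.12, 3.80 and 5.37, levels at which genes were seldom called.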

How the results depend on the processing

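Called genes numbered 2011 with DESeq2 (972 higher, 1039 lower). Leaving out 1 library gave 812 to 983 calls, 354 to 466 higher and 444 to 537 lower. For the difference from SW480, 72 genes were called with only the groups compared and 68 to 294 with 1 library left out. With the replicate number as a block 1207 genes were called, and 134 for the difference. Deviations from the group mean correlated at −0.142, 0.0458 and −0.0213 between same-numbered KRT-positive and unsorted libraries. The labels do not say whether a number marks a shared culture, and correlations over 3 libraries per group cannot decide it. RLE factors gave 1228 calls, no low-count filter 1405, only the groups compared 1158, only the libraries whose levels fell with GC content 1267 and a GC term 1595. In that order, these fits kept 99.4%, 96.5%, 87.4%, 80.1% and 97% of the reported calls. No call shared with the reported fit changed direction in any of these.

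Of 160 named genes that were called, 119 kept the call in every alternative run, 41 lost it in at least 1 and none reversed. Most were named for a small p or a large fold, so they do not stand for all calls. Of all 1232 calls, 63%, 63.3% and 61.9% were kept without KRT-positive replicate 1, 2 or 3. Without unsorted replicate 1, 2 or 3 the share kept was 73%, 72.2% and 69.2%. The HSPA5 log2 fold change, not called and −0.04 in the reported fit, was 0.178 on library totals, 0.108 in the libraries whose levels fell with GC content, 0.084 with a GC term, 0.108 without unsorted replicate 3 and −0.139 without unsorted replicate 1, and the cause was not tested. Levels under 20 CPM were seldom called at this depth and spread.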

Other observations

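Several genes outside the lists were among the smallest p-values, and they were chosen after their values were seen. STIM1, the calcium sensor of the endoplasmic reticulum that opens calcium entry, had 617, 511 and 502 CPM in the labelled KRT-positive and 86.0, 91.5 and 95.5 in unsorted libraries (log2 2.58, SE 0.22, adjusted p = 5.13e-06). STK39, a kinase that regulates ion cotransporters, had 180.1, 173 and 194 against 13.7, 13.8 and 9.59 CPM (log2 3.88, SE 0.33, adjusted p = 5.13e-06). RGS4, which shortens G protein signals, had 203, 249 and 317 against 17.2, 15.4 and 16.2 CPM (log2 3.98, SE 0.37, adjusted p = 9.53e-06). LIPH, a phospholipase, had 250.2, 331 and 311 against 32.5, 32.0 and 23.9 CPM (log2 3.33, adjusted p = 1.83e-05), and LGALS3, galectin-3, 311, 341 and 281 against 25.2, 43.5 and 52.2 CPM (log2 2.95, adjusted p = 2.95e-05). In each of these 5 genes every labelled KRT-positive library lay above every unsorted one.

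Among the lower genes, RAN, the GTPase of nuclear transport, had 362, 443 and 447 against 1657, 2027 and 2173 CPM (log2 −2.23, SE 0.19, adjusted p = 6.04e-06). KIFC1, a spindle motor, had 75.8, 69.7 and 78.3 against 416, 462 and 813 CPM (log2 −2.92, SE 0.28, adjusted p = 1.43e-05), and U2AF1, a splicing factor that recognises the 3′ splice site, 589, 558 and 633 against 2112, 2300.0 and 2938 CPM (log2 −2.05, adjusted p = 1.43e-05). In the KRT-negative libraries, which share the unsorted controls, STIM1 had 186, 187 and 196 CPM and KIFC1 84.5, 69.9 and 76.1. All 8 genes kept their call in every alternative run.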
